A study of Mus musculus with 24 samples.

Results

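The input RNA of GT1-7 cells transfected with GFP-Mkrn3 was compared with that of cells transfected with GFP alone, to ask what 24 h of the fusion protein did to the transcriptome before any pull-down. The comparison takes all genes of 6 of the 24 libraries of the study, the 3 GFP inputs and the 3 GFP-Mkrn3 inputs, as the labels name them. GT1-7 is an immortalised mouse hypothalamic line that makes gonadotropin-releasing hormone. Cells of both groups received 6 µg of plasmid for 24 h, coding for GFP or for GFP fused to Mkrn3, and 5% of each cleared lysate was kept as input before the rest went onto beads that bind GFP (the immunoprecipitate, IP). The control is thus a transfected culture that also makes GFP, and no untransfected input enters the comparison. The sources used here do not give the share of cells that took up the plasmid, and Mkrn3 is made on top of the endogenous gene, by a promoter that the labels do not name. Libraries were made with CEL-seq2, which reads the 3′ ends of transcripts, and the values are counts per gene.

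Mkrn3 encodes a makorin, a protein whose zinc fingers bind RNA and whose RING domain is the fold that lets ubiquitin ligases hand ubiquitin to a target. It is transcribed from the paternal allele of an imprinted cluster, is abundant in the hypothalamus before puberty, and its loss in people brings puberty on early. Poly(A)-binding proteins, which coat mRNA tails and promote translation, and the neuronal pentraxin Nptx1 are among its reported substrates, and Gnrh1, the precursor mRNA of the hormone that starts puberty, is the transcript named in the title of the study.

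Each GFP input held 6947556 to 9022961 counts and each GFP-Mkrn3 input 7590468 to 8730028. GFP input 1 stood apart from the other 5: it held counts for 15566 genes against 17139 to 17584, and its Pearson correlation of log2 CPM (counts relative to each library's total after edgeR's TMM scaling) with each of the others was 0.974 to 0.976, against 0.983 to 0.988 for the other pairs, within and between plasmids. GFP inputs 1 and 2 also held more ribosomal RNA, 0.23% and 0.239% of counts, than the other 4 inputs, at 0.0383% to 0.0699%. The labelled cell type was checked against its markers. Gnrh1 held 2292 to 2878 counts per input, and the neuronal genes Map2 and Eno2 at least 461. Of 17 markers of neurons and GnRH cells, however, 8 had enough counts to be tested and 6 held 0 counts in all 6 inputs, Snap25, Gap43, Nefl and Dcx among them. Of the markers of astrocytes and oligodendrocytes 9 of 16 were at 0 in every input, and so were 7 of 18 of fibroblasts, endothelium and immune cells. Other members of both were well counted. Pdgfra of the glial markers held 746 to 1067 counts per input, and Col1a2 and Kdr of the others 1128 to 1463 and 1529 to 1951. The summed level of these 2 lists overlapped between plasmids, at 125 to 142 CPM against 133 to 142 and at 402 to 431 against 387 to 424, as did that of the neuronal list at 495 to 543 against 514 to 569. Whether replicate libraries stem from different cultures is not said in the labels, so each p-value measures only the spread between these libraries, which may be technical.

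Mkrn3 itself was the transfected gene and was read first. Its level was 8.61, 6.01 and 3.97 CPM in GFP inputs 1 to 3 and 3602, 3728 and 3733 CPM in GFP-Mkrn3 inputs 1 to 3. Every GFP-Mkrn3 library lay far above every GFP library, and the 3 differed little among themselves. The rise was 9.25 on the log2 scale (95% interval 8.91 to 9.59, adjusted p = 4.4e-18, edgeR's quasi-likelihood test with Benjamini-Hochberg correction, n = 3 per group), a factor of 608 with an interval of 481 to 769. In counts, the gene held 60, 52 and 36 reads in the GFP inputs, and its share of all counts in the GFP-Mkrn3 inputs was 0.359% (exact 95% interval 0.355 to 0.364), 0.373% (0.368 to 0.377) and 0.372% (0.368 to 0.376), intervals that cover counting error only. The gene lies on chromosome 7 at 62417593 to 62420153 (RefSeq, GRCm38.p6), within the span of the long non-coding RNA Gm32061. Counts per gene do not tell the plasmid's copy from the cell's own, nor a larger share of transfected cells from more RNA per transfected cell.

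Apart from Mkrn3, 1 gene passed the test. Of the 13052 genes with enough counts, 2 were called at an adjusted p under 0.05, or 0.0153%, 1 higher and 1 lower (0.00766% each), and the median log2 fold change over all of them was −0.003. The other call was Gm25395, a small Cajal body-specific RNA, a class that guides the chemical modification of spliceosomal RNAs. RefSeq places it as a guide RNA of 272 bases on chromosome 1 at 87776938 to 87777209, inside Atg16l1, an autophagy gene. Its level was 14.6, 15.7 and 16.9 CPM in the GFP inputs and 7.49, 8.57 and 5.87 CPM in the GFP-Mkrn3 inputs, with no overlap. It fell by 1.11 on the log2 scale (95% interval −1.49 to −0.73, adjusted p = 0.0431 by edgeR's test). The host transcript Atg16l1 stood at 34.6, 32.5 and 28.8 against 31.1, 32.6 and 29.7 CPM (log2 fold change −0.04, −0.27 to 0.20). Whether the reads of Gm25395 come from the small RNA or from its host was not tested. In the fit of all 12 pull-down libraries the call of Gm25395 was lost when any 1 of the 6 inputs was left out. Its adjusted p was then 0.0557 to 0.745 by edgeR's test, while its log2 fold change stayed between −1.24 and −0.97. With the 6 inputs fitted alone it was not called (adjusted p = 0.0643). Without GFP input 1 there, a fit chosen after seeing the data, it was called (adjusted p = 0.00748). In the IPs it was lower as well (−0.98, adjusted p = 0.00014).

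**Figure D1:**
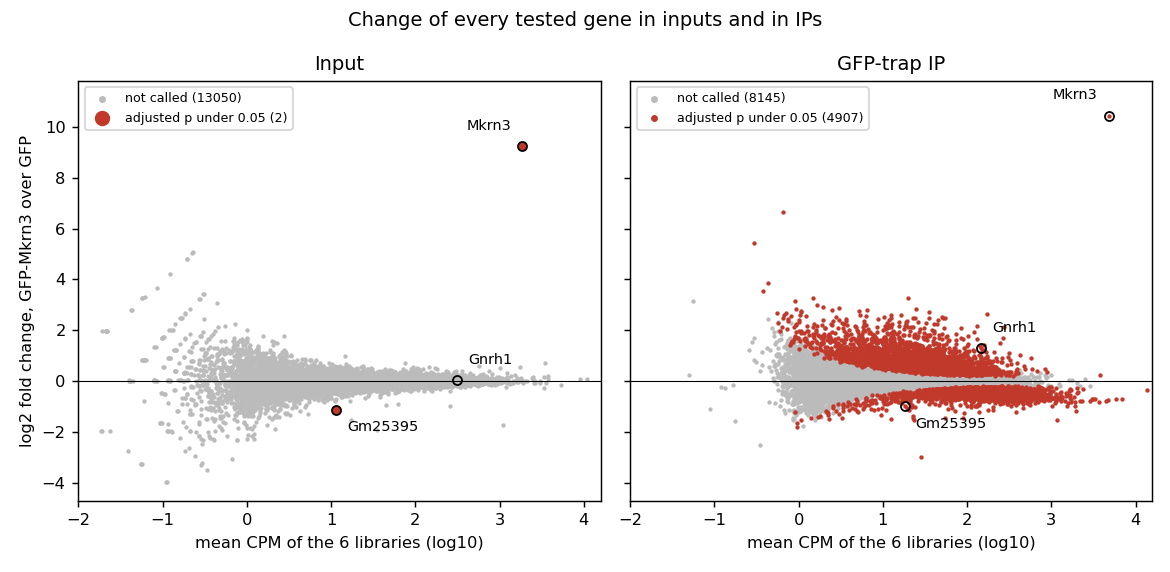
Log2 fold change of GFP-Mkrn3 over GFP (y axis) against the mean CPM of the 6 libraries on a log10 scale (x axis) for the 13052 tested genes, in inputs (left) and IPs (right). Each point is 1 gene, red where the adjusted p was under 0.05; 8 genes of the input panel with lower means lie outside the x range. Mkrn3 and Gm25395 are the 2 red points on the left, and 4907 genes (37.6%) are red on the right.

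How large a change the inputs could have hidden, as an average over all cells of a culture, is given by the intervals of the single genes. With the share of transfected cells unknown, the intervals do not bound the change within those cells. The 95% interval, taken gene by gene, lay wholly within a 2-fold change in either direction for 10607 genes (81.3%) and within a 1.5-fold change for 8264 (63.3%). With a mean of 20 to 100 counts over the 6 inputs, 78.3% of genes were bounded within 2-fold, and from 100 to 500 counts 99.4% were. From 500 to 2000 counts it was 99.9%. Below 20 counts it was 4.39% of 1958 genes, so that for most of these a 2-fold change was not excluded at this depth. At an unadjusted p under 0.05 there were 734 genes, 381 higher and 353 lower, or 5.62% of those tested. Genes whose 3 GFP-Mkrn3 libraries all lay above, or all below, the 3 GFP libraries numbered 915 (7.01%) and 856 (6.56%). These percentages are the background for the counts below.

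Gnrh1 did not change in the inputs beyond the spread between libraries. It was at 338, 284 and 317 CPM with GFP and at 340, 302 and 315 CPM with GFP-Mkrn3, groups that overlap throughout. The log2 fold change was 0.03 (−0.16 to 0.22, adjusted p = 0.984, edgeR), which bounds the average change of this mRNA over the culture to well within 1.5-fold. In the IPs of the same lysates it was higher with GFP-Mkrn3 by 1.32 (adjusted p = 2.7e-08), and the difference between the IP change and the input change was 1.29 (adjusted p = 5.1e-06). Gnrh1 lies on chromosome 14 at 67745181 to 67749440.

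None of the factors known to act on the Gnrh1 promoter passed the test, and 13 of the 14 tested genes of the list of GnRH neuron genes and regulators had intervals within 2-fold. Otx2, a homeobox activator of Gnrh1, was at 151, 148 and 162 against 167, 164 and 165 CPM (0.10, −0.08 to 0.29). Six6, another activator, was at 39.9, 45.2 and 39.4 against 45.8, 41.1 and 43.9 CPM (0.07, −0.23 to 0.38). Meis1, a homeobox gene, was at 100, 104 and 96.6 against 115, 110 and 108 CPM (0.15). Its groups lay apart without reaching the threshold, as did those of Otx2 and of Tcf4 (0.25). Over the list, 4 of 14 members lay wholly higher and 0 lower (28.6% and 0%), against 7.01% and 6.56% of all tested genes. Lhx2, a LIM homeobox gene, was at −0.25 (−0.63 to 0.13) and overlapped. Gata4, of the zinc-finger activators, and Irf2bpl, a gene implicated in the onset of female puberty, were at −0.10 and −0.22 and overlapped. Nptx1 was scarce, at 0.144, 0.578 and 0.882 against 0.508, 1.32 and 1.04 CPM, and its interval of −0.75 to 2.27 was too wide to bound a 2-fold change at this depth. Kiss1, Tac2 and Nkx2-1 held 0 counts in all 6 inputs, and Kiss1r, the receptor of kisspeptin, 2 to 9 counts.

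Among the enzymes that cut and finish peptide hormone precursors and their partners in the secretory pathway, none of 10 tested genes was called by edgeR, with 2 higher (Scg5 and Prep) and 0 lower at an unadjusted p under 0.05. Pcsk2, a proprotein convertase, was at 40.3, 34.0 and 36.7 against 41.1, 35.2 and 35.5 CPM (0.01, −0.23 to 0.26). Carboxypeptidase E, Cpe, which trims the cut ends, was at 304, 257 and 258 against 271, 291 and 277 CPM (0.03, −0.13 to 0.20). Pam, the enzyme that amidates the C terminus of the finished hormone, was at 724, 716 and 770 against 709, 701 and 715 CPM (−0.06, −0.23 to 0.11). Its groups did not overlap, but the gap was a few CPM and the adjusted p was 0.963. All 10 tested members of this list had intervals within 2-fold. Of them 2 lay wholly higher and 1 wholly lower (20% and 10%), against 7.01% and 6.56% of all tested genes. Scg5, which escorts Pcsk2, was at 14.5, 13.9 and 15.3 against 20.1, 20.3 and 16.7 CPM, with no overlap (0.38, adjusted p = 0.829). Pcsk1n, an inhibitor of Pcsk1, was at −0.25 with overlap. Pcsk1 and Qpct, which forms the N-terminal pyroglutamate of the hormone, held 0 counts in every input, as did the granins Chga and Scg2.

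The other makorins and the poly(A)-binding proteins were likewise not called. Mkrn1, the makorin known to bind Pabpc1, was at 55.1, 55.1 and 49.1 against 44.4, 51.0 and 54.8 CPM (−0.08, −0.35 to 0.18). Mkrn2 was at 56.1, 59.5 and 80.7 against 61.0, 62.6 and 63.8 CPM (−0.07, −0.32 to 0.18). Pabpc1, the main cytoplasmic poly(A)-binding protein, was at 534, 617 and 612 against 644, 615 and 603 CPM (0.08, −0.08 to 0.24). For each of these 3 the groups overlapped. Pabpc4 was at 0.06 (−0.13 to 0.25). Among the regulators, Paip2, an inhibitor that strips Pabpc1 from the tail, was at 66.0, 60.1 and 57.6 against 75.8, 80.0 and 73.3 CPM (0.32, 0.12 to 0.52, adjusted p = 0.71), wholly higher but not called. Its activating counterpart Paip1 was wholly lower at −0.11. All 13 tested genes of the list had intervals within 2-fold. In the IPs Mkrn1 was lower (−0.59, adjusted p = 0.0011) and Pabpc1 higher (0.49, adjusted p = 6.7e-05).

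**Figure D2:**
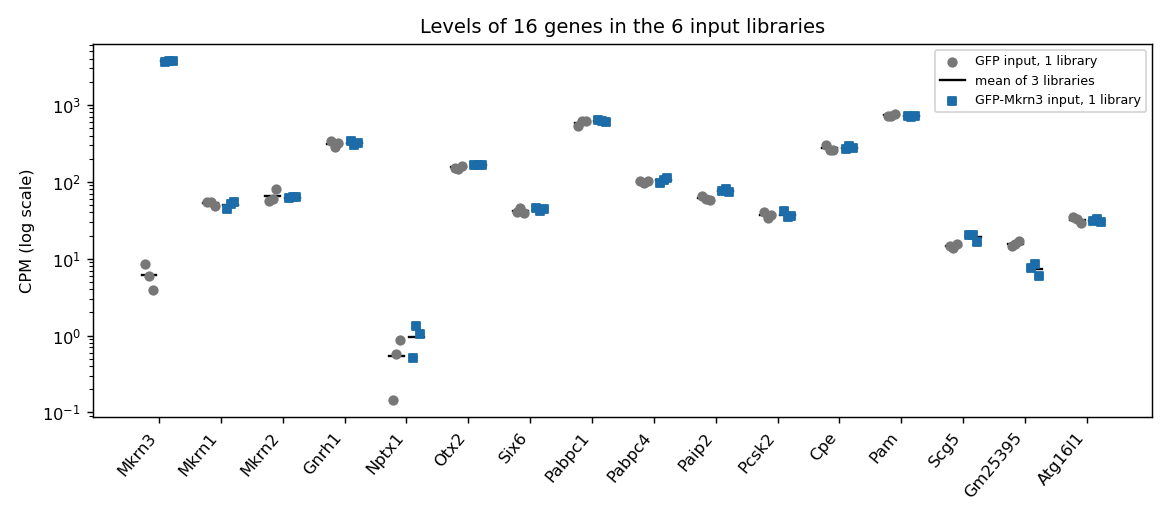
CPM on a log scale (y axis) of 16 genes (x axis) in the 3 GFP inputs (grey circles) and 3 GFP-Mkrn3 inputs (blue squares), 1 point per library, with the mean of each group as a bar. Mkrn3 is the only gene of the 16 whose groups lie orders of magnitude apart; Gnrh1, Pabpc1, Pcsk2 and Cpe overlap.

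Mkrn3 is both an imprinted gene and a ubiquitin ligase gene, and neither class was called beyond Mkrn3. Ndn, a neighbour of Mkrn3 in the imprinted cluster, was at 4.31, 7.63 and 7.39 against 6.86, 6.86 and 6.10 CPM (0.02, −0.53 to 0.57). Ube3a, a ubiquitin ligase gene of the same imprinted domain, was at 0.09 (−0.18 to 0.36), Igf2r at 0.03 and Gnas at −0.01. Of the 15 tested imprinted genes 1 was called, Mkrn3 itself, and 13 had intervals within 2-fold. Peg10, which derives from a retrotransposon, was at 148, 180 and 182 against 202, 196 and 197 CPM (0.22), wholly higher and not called. Among 40 ubiquitin genes and ligases 0 were called, with 0 at an unadjusted p under 0.05 by edgeR, and the median was 0.02. Uba1, the enzyme that activates ubiquitin, was at 0.13 and Ube2d3, a conjugating enzyme that works with many RING ligases, at 0.09.

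Other processes were described with 44 gene lists, holding 1087 distinct tested genes. In 42 of them no member was called by edgeR, and in the makorin and imprinted lists the call was Mkrn3. The list medians ran from −0.29 to 0.40 on the log2 scale, and 38 of 44 lay within 0.1 of zero. A list's median was also taken in each library, as log2 CPM around each gene's mean over the 6 inputs. For 7 lists the 3 GFP-Mkrn3 libraries lay wholly above the GFP libraries: makorins, prohormone processing, heat shock, interferon, mitosis, and the markers of neurons and of astrocytes and oligodendrocytes. The makorin median was pulled that way by the transfected Mkrn3, 1 of its 3 members. Mkrn1 and Mkrn2 themselves were at −0.08 and −0.07 with overlap. The marker medians ran from −0.129 to −0.0176 against −0.0146 to 0.112 for neurons and from −0.128 to −0.00777 against 0.00163 to 0.218 for glia, over 8 and 5 tested genes, and their part in the other lists was not tested. For 4 lists the GFP-Mkrn3 libraries lay wholly below (ER stress, NRF2, snoRNA hosts and lysosome), and for 33 the groups overlapped. Of single tested genes 13.6% had groups that did not overlap, and no such background was taken for lists. Some genes are on more than 1 list.

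**Figure D3:**
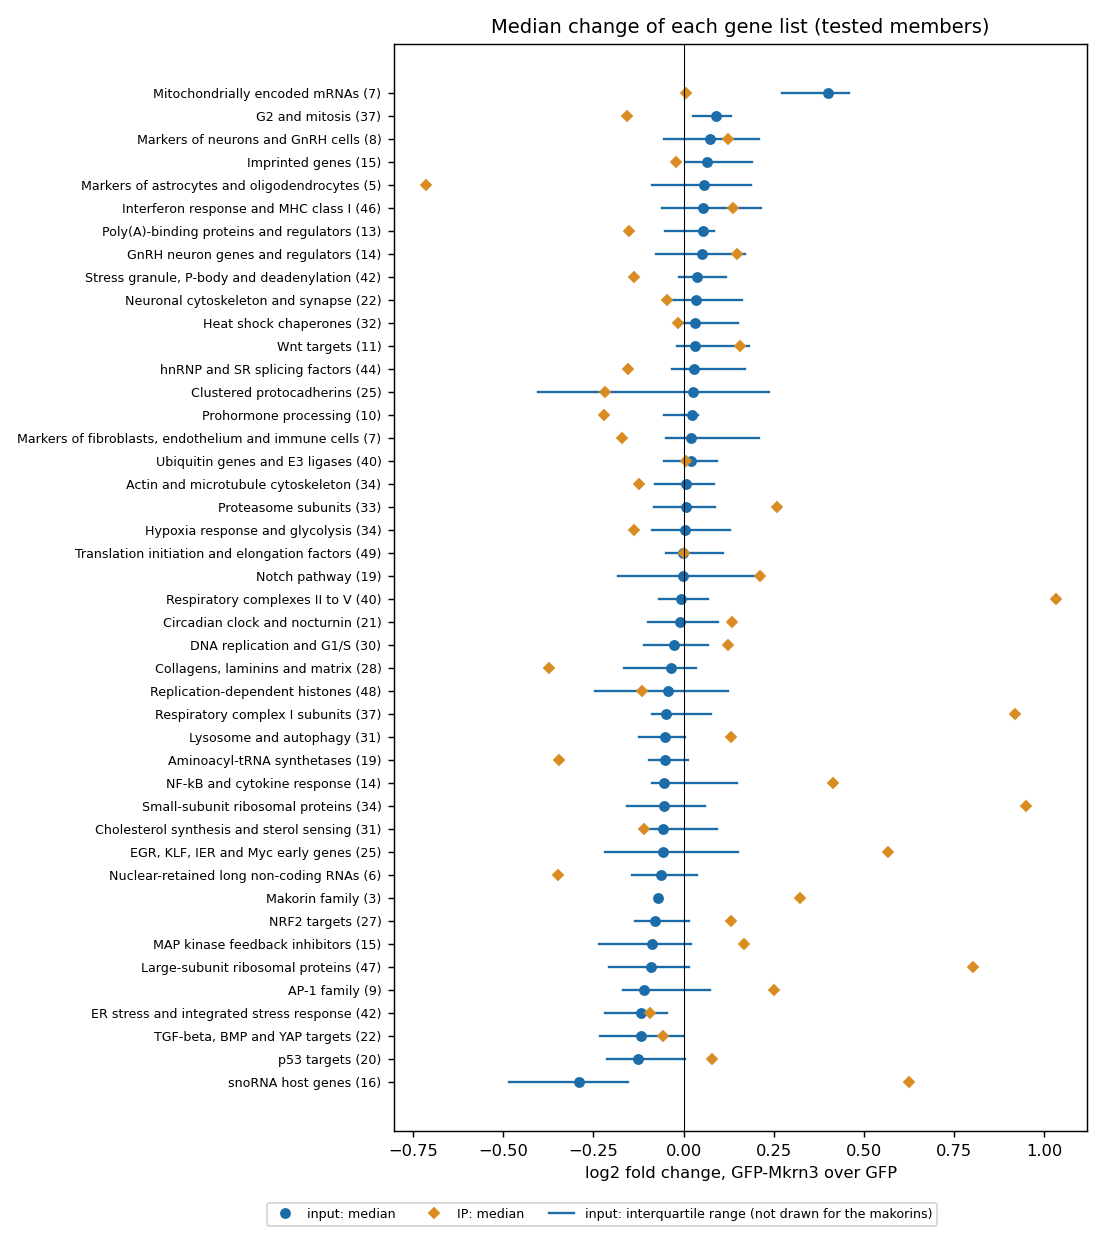
Median log2 fold change (x axis) over the tested members of each of 44 gene lists (y axis, number of members in brackets) in inputs (blue circles, with the interquartile range of the members) and in IPs (orange diamonds). Input medians run from −0.29 to 0.40, while IP medians of ribosomal proteins and respiratory complexes lie near 0.8 to 1.03.

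The endoplasmic reticulum (ER) stress list, chaperones and regulators that cells switch on when proteins misfold in the secretory pathway, leaned lower. The list also holds genes of the integrated stress response. None of its 42 tested members was called, 6 were lower and 0 higher at an unadjusted p under 0.05 by edgeR, and the median was −0.12. The libraries did not overlap for 12 members, all lower (28.6% against 6.56% of all tested genes). Hspa5, the ER's main chaperone also known as BiP, was at 3860, 3475 and 3759 against 3017, 3215 and 3061 CPM (−0.26, −0.48 to −0.03, adjusted p = 0.864). Each GFP-Mkrn3 library was below each GFP library without exception. Hyou1, a second ER chaperone, was at 1280, 1275 and 1305 against 1164, 1070 and 1080 CPM (−0.22). Ppp1r15a, which restarts translation after stress, was at 165, 169 and 172 against 139, 137 and 128 CPM (−0.33), and Sdf2l1, a co-factor of Hspa5, at 151, 142 and 141 against 125, 124 and 120 CPM (−0.23). Chac1, a late target of the same response, was wholly lower too (−0.57). Of the transcription factors of the response, Xbp1 lay wholly lower at 39.2, 45.5 and 46.7 against 36.2, 38.5 and 35.7 CPM (−0.25, −0.51 to 0.01), and so did Atf6 (−0.14). Atf4, Ddit3 and Atf3 overlapped at −0.03, −0.08 and −0.17. The chaperone Hsp90b1 overlapped at 0.17. In the IPs Hspa5 and Hyou1 were lower as well (−0.83 and −0.96, adjusted p = 1.5e-05 and 3.9e-07), Ppp1r15a and Atf4 higher (0.38 and 1.20, adjusted p = 0.01 and 5.3e-07).

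The promoter of Hspa5 shows a regulatory sequence that some of these genes share. The ER stress element, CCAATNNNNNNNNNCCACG, was searched on both strands in the 250 bases before the start of each gene in RefSeq's table for GRCm38.p6. The stretch below is chr2:34771840-34772089, plus strand, with the element in capitals.
Hspa5: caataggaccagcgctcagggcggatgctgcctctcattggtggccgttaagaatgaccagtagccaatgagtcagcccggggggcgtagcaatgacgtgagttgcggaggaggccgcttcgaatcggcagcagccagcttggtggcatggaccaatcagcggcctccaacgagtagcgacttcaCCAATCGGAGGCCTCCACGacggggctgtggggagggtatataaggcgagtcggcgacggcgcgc
The element lay 65 to 47 bases before the start. It was held by 8 of the 37 tested list members matched there (21.6%). Of tested genes 15 of 9487 held it (0.158%), and of gene symbols overall 35 of 27025 (0.13%). The list is made of known genes of these responses, so its share describes the list and not the inputs. The 8 were Hspa5, Calr, Canx, Creld2, Dnajc3, Hsp90b1, Pdia6 and Syvn1. Their log2 fold changes in the inputs were −0.26, −0.08, 0.01, −0.12, −0.05, 0.17, −0.12 and −0.21 in that order, and only Hspa5 and Pdia6 had groups that did not overlap. That is 2 of 8 wholly lower, beside 12 of the 42 tested members of the list.

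Targets of NRF2, the factor that answers oxidative stress, leaned the same way in fewer members. None of 27 was called, with 2 lower and 0 higher at an unadjusted p under 0.05 by edgeR, and the median was −0.08. Wholly lower were 7 members and wholly higher 1 (25.9% and 3.7%), against 6.56% and 7.01% of all tested genes. Hmox1, which breaks down haem, was at 279, 330 and 269 against 220, 215 and 230 CPM (−0.40, −0.70 to −0.10, adjusted p = 0.81). Osgin1 was scarcer, at 3.73, 6.36 and 7.61 against 2.79, 2.50 and 2.65 CPM (−1.17). Txnrd1 was at −0.17, while Nqo1, often used as the reporter of this pathway, overlapped at −0.09. Of 20 tested p53 targets 5 lay wholly lower and 0 higher (25% and 0%), against the same 6.56% and 7.01%. Of these targets 0 were called, and 2 were lower at an unadjusted p under 0.05 by edgeR. Bax, a cell death gene, was at −0.36, and Cdkn1a and Mdm2 were at −0.12 and −0.10 with overlap.

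Heat shock chaperones and mitotic genes leaned higher. Of 32 chaperones 0 were called, and 4 were higher and 0 lower at an unadjusted p under 0.05. The list median was only 0.03. Wholly higher were 7 and wholly lower 2 (21.9% and 6.25%), against 7.01% and 6.56% of all tested genes. Hsp90ab1, the constitutive cytosolic Hsp90, was at 3619, 3141 and 3554 against 4042, 3880 and 4039 CPM (0.21, 0.04 to 0.39). Hspe1, the lid of the mitochondrial chaperonin, was at 64.4, 73.8 and 87.9 against 109, 120 and 108 CPM (0.57, 0.05 to 1.09), and Stip1, a co-chaperone, at 0.24. The stress-inducible Hspa1b overlapped at 8.90, 8.44 and 5.29 against 7.37, 5.80 and 7.59 CPM (−0.11), as did Hspd1, the partner of Hspe1 in the chaperonin (0.04). Of 37 genes of G2 and mitosis 0 were called, and 4 were higher and 0 lower at an unadjusted p under 0.05. The list median was 0.09, and 8 members lay wholly higher and 2 wholly lower (21.6% and 5.41%, against the same 7.01% and 6.56%). Cdca8, of the chromosomal passenger complex, was at 95.6, 71.9 and 76.5 against 99.1, 105 and 121 CPM (0.41), and the motor genes Kif11 and Cenpe were at 0.33 and 0.30. Mki67 and Top2a overlapped at 0.12 and 0.10, and the kinase Ttk lay wholly lower at −0.15.

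Splicing factors of the hnRNP and SR families, which decide how exons are joined, held no call. Of 44 tested, 4 were higher and 0 lower at an unadjusted p under 0.05 by edgeR, and the median was 0.03. Wholly higher were 5 and wholly lower 3 (11.4% and 6.82%), against 7.01% and 6.56% of all tested genes. Hnrnpa2b1 was at 955, 732 and 834 against 1124, 1242 and 1266 CPM (0.53, 0.21 to 0.84, adjusted p = 0.71). Hnrnpa3 was at 522, 403 and 424 against 548, 670 and 833 CPM (0.60, 0.22 to 0.99). In both the groups lay apart, with GFP input 1 the highest of its group. In the IPs Hnrnpa3 was lower (−0.68, adjusted p = 0.0072) and Hnrnpa2b1 not called (−0.25).

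Ribosomal proteins and the hosts of small nucleolar RNAs (snoRNAs) had medians below zero in the inputs, while in the IPs most ribosomal proteins were called higher. Of 47 large-subunit proteins 0 were called, 5 were lower and 0 higher at an unadjusted p under 0.05, with a median of −0.09. Of them 12 lay wholly lower and 0 higher (25.5% and 0%), against 6.56% and 7.01% of all tested genes. Rpl3 was at 166, 157 and 167 against 120, 140 and 138 CPM (−0.30, −0.49 to −0.11). Rpl22l1, a scarce paralog of Rpl22, was at 7.61, 9.02 and 6.29 against 3.68, 2.11 and 3.45 CPM (−1.30, −1.96 to −0.64, adjusted p = 0.65). Of 34 small-subunit proteins 1 lay wholly lower and 2 higher, at a median of −0.06. In the IPs 41 of the 47 large-subunit and 28 of the 34 small-subunit proteins were called higher, against 20.4% of all tested genes, with medians of 0.80 and 0.95. Nuclear-encoded subunits of respiratory complex I did the same, 31 of 37 called higher in the IPs (median 0.92) and 0 in the inputs (median −0.05, 0 higher and 1 lower at an unadjusted p under 0.05).

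The snoRNA host genes, non-coding transcripts whose introns carry the guides of ribosomal RNA modification, had the lowest list median, −0.29. Of 16 tested 0 were called, and 4 were lower and 0 higher at an unadjusted p under 0.05. Wholly lower were 7 and wholly higher 0 (43.8% and 0%), against 6.56% and 7.01% of all tested genes. Snhg15 was at 9.18, 5.43 and 5.07 against 4.32, 3.03 and 2.88 CPM (−0.93, −1.55 to −0.31), and Snhg1 was wholly lower as well (−0.28). Gas5, which like many ribosomal protein mRNAs begins with a run of pyrimidines, overlapped at −0.07. In the IPs Snhg1 was higher by 1.73 (adjusted p = 3.1e-06). Small non-coding RNAs also had medians below zero: −0.34 over 18 snoRNAs, −0.62 over 10 small nuclear RNAs and −0.15 over 7 of the Cajal body class, Gm25395 among them, with 3, 2 and 2 members wholly lower and 0 higher. These values moved with the libraries: small nuclear RNA made up 0.1% of GFP input 2 against 0.0164% to 0.0398% in the other 5, and its part in the result was not tested. Where the reads of these small RNA rows come from was not tested either.

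**Figure D4:**
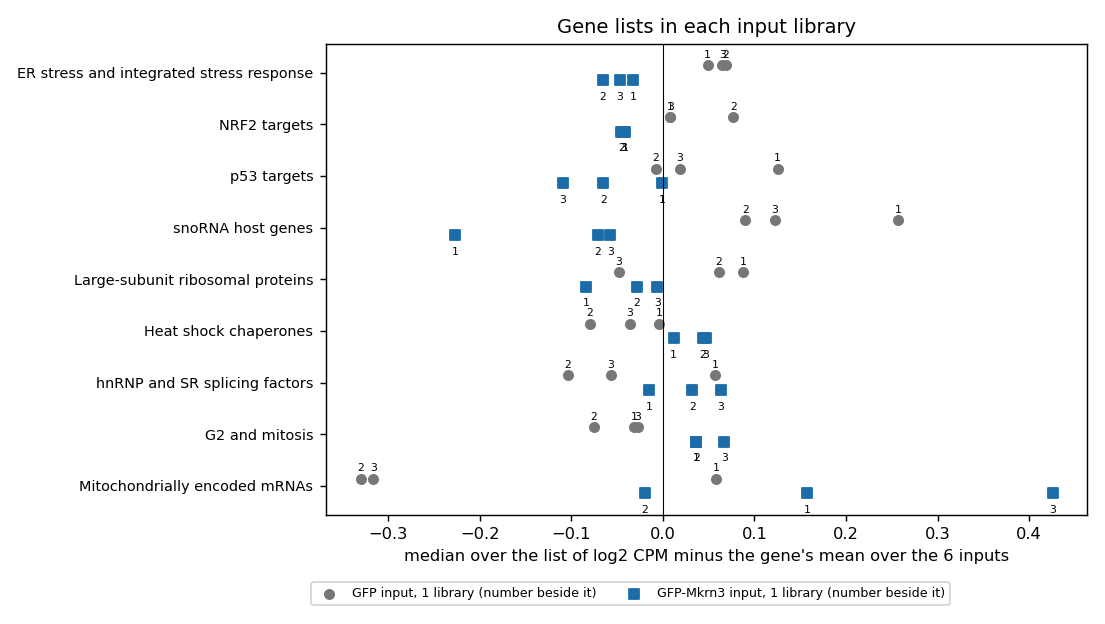
Median over the list members of log2 CPM, centred on each gene's mean over the 6 inputs (x axis), for 9 gene lists (y axis), with 1 point per library and its replicate number beside it (grey circles GFP, blue squares GFP-Mkrn3). The ER stress, NRF2 and snoRNA host lists lie apart downwards and the heat shock and mitosis lists upwards, with no overlap of the libraries; the other 4 overlap.

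Mitochondrial mRNAs and ribosomal RNA rows differed between single libraries within a group. All 7 tested mitochondrial mRNAs had positive estimates, with a median of 0.40, 3 at an unadjusted p under 0.05 and 0 called by edgeR. Only mt-Cytb, of complex III, lay wholly higher (750, 706 and 765 against 907, 772 and 1022 CPM). mt-Nd5 was at 770, 580 and 594 against 827, 730 and 1025 CPM (0.41). GFP-Mkrn3 input 3 was the highest library for 5 of the 7 and GFP input 1 lay inside the GFP-Mkrn3 range for mt-Nd1, mt-Nd2, mt-Nd4 and mt-Nd5. The ribosomal row Rn18s-rs5 was at 2290 and 2352 CPM in GFP inputs 1 and 2, but at 432 in GFP input 3 and 384, 443 and 701 in the GFP-Mkrn3 inputs, so that its estimate of −1.73 rests on 2 libraries. Lars2 and Mir6236 followed that pattern. Mir6236 was at 108, 45.9 and 13.9 against 13.0, 13.8 and 16.7 CPM (−1.93, adjusted p = 0.673). Its mature sequence in RefSeq, shown for the largest estimate in size, after Mkrn3, among genes with a mean of over 100 counts, has its seed (bases 2 to 8) in capitals and lies at chr9:110281353-110281371, plus strand.
miR-6236: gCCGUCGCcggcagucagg
Whether these reads come from the small RNA or from ribosomal RNA was not tested.

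Genes of signalling and of immediate responses held no call. Fos, Jun and Fosl2 of the AP-1 family were at 0.09, 0.07 and −0.06 with overlap, and Junb at 55.4, 47.5 and 40.9 against 37.7, 36.3 and 40.7 CPM (−0.32) without. Of 46 tested interferon and MHC class I genes, which respond to foreign DNA and RNA, 0 were called, 3 were higher and 2 lower at an unadjusted p under 0.05, and the median was 0.05. Psmb9, an immunoproteasome subunit, was at 10.6, 11.4 and 12.4 against 16.3, 14.5 and 18.6 CPM (0.52, 0.16 to 0.88), the interferon-induced Ifit1 at 0.51 and Oas1a at −0.56. Isg15 overlapped at −0.15. Among clock genes, Noct, the clock-driven nocturnin, lay wholly lower at −0.34. Hlf, a clock output factor, lay wholly higher at 5.17, 4.28 and 2.65 against 7.11, 6.99 and 7.13 CPM (0.83). Neither was called.

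The number of calls moved with the libraries fitted. With the 6 inputs fitted alone 4 genes were called, all higher: Mkrn3, Pbdc1, Hnrnpa2b1 and Flrt3. Leaving GFP input 1 out of the fit of all 12 pull-down libraries called 2, Mkrn3 and Bc1. In a fit chosen after seeing the data, of the inputs alone without GFP input 1, 78 of 12371 tested genes were called (0.631%), 68 higher (0.55%) and 10 lower (0.0808%). All 78 had the same direction with every library included, 2 of them were called there (Mkrn3 and Gm25395), and 42 of them had groups that did not overlap over the 6 inputs. The changes were small, with medians of 0.46 and −0.45, and 52 of the 68 were under 1.5-fold. More than 1 of these calls fell in 7 lists. The splicing factors held 6 of 44, all higher (Hnrnpa2b1, Hnrnpa3, Hnrnpd, Hnrnph1, Hnrnpr and Srsf5), and mitochondrial mRNAs 3 of 7. The other 5 lists held 2 each: Cdca8 and Cenpe of mitosis and Hsp90aa1 and Hspe1 of heat shock were higher, Ppp1r15a and Trib3 of ER stress and Hmox1 and Osgin1 of the NRF2 list lower, and of the clock genes Rora was higher and Noct lower. Gnrh1, Mkrn1, Mkrn2, Pabpc1, Pabpc4, Pcsk2, Cpe and Pam were called in none of 15 alternative fits, and the estimates of Gnrh1 stayed between −0.04 and 0.09.

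The 4 genes nearest to the threshold after Mkrn3 and Gm25395 were all higher. Faim, an inhibitor of cell death by Fas, was at 10.6, 11.1 and 7.72 against 17.1, 18.3 and 23.5 CPM (1.01, 0.59 to 1.42, adjusted p = 0.303 by edgeR). Pbdc1 was at 126, 107 and 121 against 170, 174 and 179 CPM (0.56, 0.32 to 0.80, adjusted p = 0.308). Anp32a, a histone chaperone and phosphatase inhibitor, was at 66.2, 43.4 and 60.6 against 86.9, 92.0 and 102 CPM (0.73, adjusted p = 0.4), and Rbm17, a splicing factor, at 64.7, 57.7 and 56.4 against 78.6, 86.2 and 86.7 CPM (0.49, adjusted p = 0.418). In all 4 the groups lay apart. With DESeq2 in place of edgeR these 4 were called beside Mkrn3 and Gm25395, making 6 genes in all. They were chosen for naming after their values were seen.

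**Figure D5:**
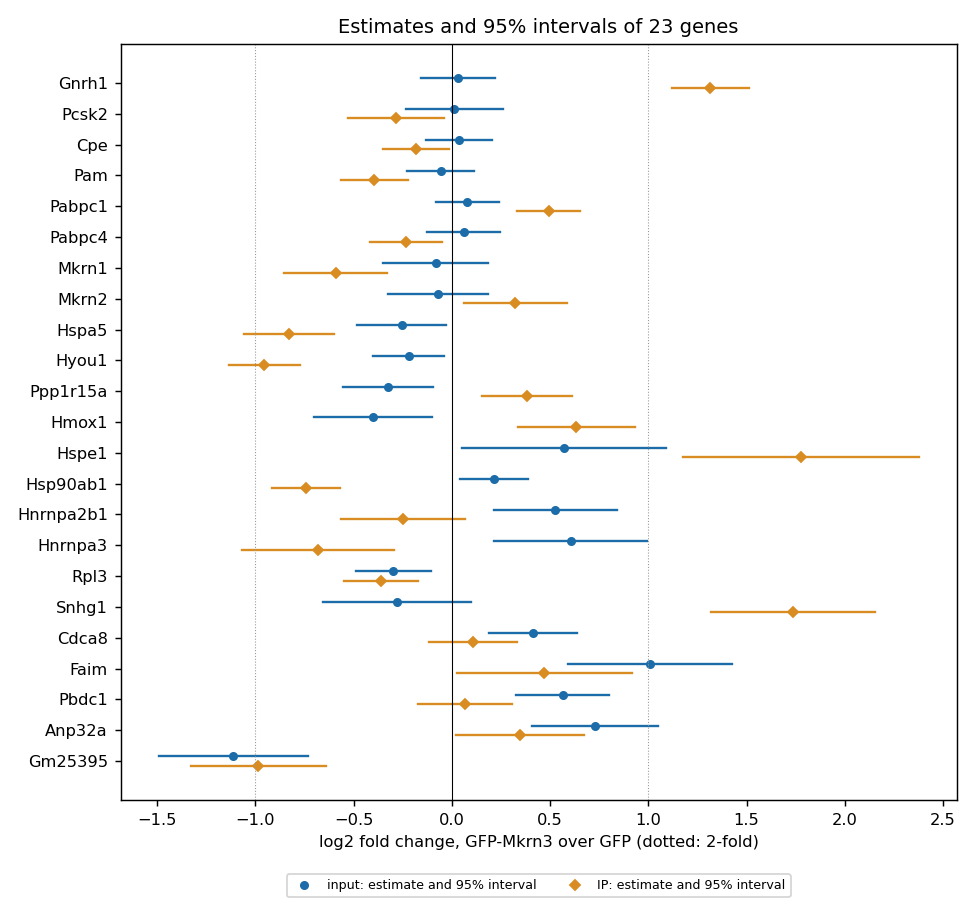
Log2 fold change of GFP-Mkrn3 over GFP (x axis, dotted lines at 2-fold) with its 95% interval for 23 genes (y axis), in inputs (blue circles) and in IPs (orange diamonds). The input interval of Gnrh1 runs from −0.16 to 0.22, while its IP estimate is 1.32; of the input estimates drawn, those of Faim and Gm25395 pass 2-fold.

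Most of what differed between plasmids was seen after the pull-down and not before it. In the IPs 4907 genes (37.6%) were called by edgeR, 2661 higher (20.4%) and 2246 lower (17.2%) with GFP-Mkrn3. Of the 2661 that were higher 1 was called in the inputs, Mkrn3, and 2466 had input intervals within 2-fold, with a median input change of −0.02. Of the 2246 that were lower 1 was called in the inputs, Gm25395, and the median input change was 0.01. The difference between the IP change and the input change was itself called for 3178 genes (24.3%), 1724 higher (13.2%) and 1454 lower (11.1%). Both balances moved with the scaling: with library size alone the calls were 4104 higher and 1154 lower in the IPs, and 2845 higher and 603 lower for the difference. Among the 825 genes more than 2-fold higher in the IPs, 38 lay wholly higher in the inputs and 56 wholly lower (4.61% and 6.79%, against 7.01% and 6.56% of all genes).

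The stable line with GFP-Mkrn3 (Mkrn3ox) offered a second view of total RNA, from shallower libraries of 513166 to 759271 counts that were counted in a separate table. Mkrn3 held 0 counts in all 6 of its total RNA libraries, so that row does not check the label, and no source used here states the strand setting behind that table. Of 5033 tested genes 372 (7.39%) were called, 179 higher (3.56%) and 193 lower (3.83%), between the line labelled Mkrn3ox and unmodified cells. Those also tested in the inputs were 130 higher and 156 lower, of which 0 were called in the inputs by edgeR (at an unadjusted p under 0.05, 4 higher and 5 lower of the 130, and 10 higher and 0 lower of the 156). Of the 156 that were lower in the line, 22 lay wholly higher in the inputs and 7 wholly lower (14.1% and 4.49%). Of the 130 that were higher in the line, 15 lay wholly higher and 12 wholly lower (11.5% and 9.23%). Over all tested genes the shares were 7.01% and 6.56%. The median input changes of the 130 and the 156 were −0.01 and 0.02, and 116 and 150 of them had input intervals within 2-fold. Pam, for example, was 1.27 higher in the line (adjusted p = 1.7e-05) and at −0.06 in the inputs, and Gnrh1 was at 0.22 and 0.03, called in neither. Anp32a, at 0.73 and not called in the inputs, went the other way in the line (−1.22, adjusted p = 0.024 by edgeR's test).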

How the data were processed

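Counts per gene were deposited by the authors as whole numbers in 57010 rows per table, 1 table for the 12 pull-down libraries and 1 for the 12 fractionation libraries. Per the submitters' processing notes, cutadapt, STAR and HTSeq were used with mm10. The sources used here give no versions, strand setting or handling of molecular identifiers. In 1606 rows the name field holds no gene name; they were fitted under their gene ID.

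The 12 pull-down libraries were fitted together with edgeR 4.0.16 in R 4.3.3 (TMM factors, genes kept by filterByExpr, 1 mean per group, quasi-likelihood F test, two-sided, Benjamini-Hochberg adjustment over 13052 genes, call at an adjusted p under 0.05). The fractionation table was fitted separately. The 95% intervals are Wald intervals with moderated variances, gene by gene. Shares have exact (Clopper-Pearson) intervals. Alternatives were DESeq2 1.42.0 (size factors or test), library size alone, other filters on low counts, the compared groups alone, the replicate number as a block, and each library left out. The fit was tested on simulated data. Python 3.11.15 and matplotlib 3.10.9 drew the figures.

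Genes were named from the makorins, Gnrh1, Nptx1, Pabpc1 and Pabpc4 and the prohormone enzymes Cpe, Pam, Qpct, Pcsk1 and Pcsk2, every called gene whose mean reached 20 counts, and members of 44 lists. The members and lists were chosen with earlier results of these data known. The other names were chosen after their values were seen. Some results are not reported here.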

Additional observations from a re-analysis of the deposited data

Results flagged for a closer look

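For 5 of the 11 genes named by the rule, the change with GFP-Mkrn3 differed between the pull-down and the input, by edgeR's test of the difference, which called 24.3% of all tested genes and 75 of the 138 other genes tabled by name. Gnrh1 was at 0.03 in the inputs and 1.32 in the IPs, a difference of 1.29 (adjusted p = 5.1e-06). Mkrn3 rose by 9.25 and 10.44, a difference of 1.20 (adjusted p = 0.0012). Pabpc1 was at 0.08 and 0.49, a difference of 0.41 (adjusted p = 0.0095). Mkrn1 was at −0.08 and −0.59, a difference of −0.51 (adjusted p = 0.0451), and Pam at −0.06 and −0.39, a difference of −0.34 (adjusted p = 0.0396). In each of these the IP change was the larger in size.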

How the results depend on the processing

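The input comparison called 2 genes under either scaling (DESeq2 size factors or library size alone) and with a mean of at least 20 counts. It called 34 with no filter on low counts (22 higher, 12 lower), 6 with the DESeq2 test, 4 with the compared groups alone, 1 to 3 with any 1 input left out, and, in fits chosen after seeing the data, 78 in the inputs alone without GFP input 1 and 1 in the inputs alone with a replicate block; the cause was not tested. Mkrn3 was called in all 15 alternatives. Library size alone moved the median of all genes in the IPs by 0.18, from 0.03 to 0.21, and the IP calls to 4104 higher and 1154 lower, and those of the difference to 2845 and 603. With 1 library left out the stable line had 234 to 306 calls, and more higher than lower ones without wt total 1 (157 and 149) or Mkrn3ox total 2 (119 and 117), as with library size alone (252 and 163). With the replicate number as a block 2 genes were called in the inputs (Mkrn3 and Anp32a, not Gm25395), 4889 in the IPs, 3195 for the difference and 336 in the stable line. Same-numbered inputs did not deviate together (r of −0.058 to −0.036). Neither did the same-numbered input and IP of a plasmid (r of −0.146 to 0.014), so this check cannot tell whether the numbers pair libraries. No gene tabled by name was called with the opposite sign. Depth limits genes under 20 counts, of which 4.39% were bounded within 2-fold.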
